A study of Homo sapiens with 12 samples.

Results

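The response of Kasumi-1 cells to OGP46 was read from the 6 Kasumi-1 samples of a series of 12, with 3 samples in each of 2 groups. Kasumi-1 is a human cell line of acute myeloid leukemia, M2 subtype, that carries the t(8;21) translocation and its AML1-ETO fusion gene. OGP46 is a compound synthesized from oridonin. The treated group was incubated with 1 μM OGP46 and the control group with DMSO, both for 48 h by the labels and the methods of the study, while a figure legend of the study gives a longer incubation. The other 6 samples come from NB4 cells under the same conditions and serve only to show where Kasumi-1 differed. Each sample was measured by poly(A) mRNA sequencing, which gives 1 FPKM value (fragments scaled to exon length and library size) per gene symbol. The labels do not say whether the 3 samples of a group were separate cultures. The study describes its experiments as independently repeated but does not tie those repeats to the numbered samples. Each p-value without the sample number as a block therefore measures the spread between these samples. With the number as a block it measures the spread of the differences between same-numbered samples. Either spread may be technical.

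AML1-ETO joins the DNA-binding part of RUNX1, a regulator of blood cell formation, to the corepressor RUNX1T1, and holds cells at the myeloblast stage. Such cells make large amounts of primary granule proteins and carry progenitor receptors such as KIT and CD34. Several stress programs can act on top of this identity. The transcription factor NRF2 is released from its inhibitor KEAP1 by oxidants and electrophiles and then switches on quinone reductases, glutathione and thioredoxin enzymes and ferritin. SQSTM1 (p62), an autophagy receptor that carries ubiquitinated cargo to lysosomes, binds KEAP1 and is itself a target of NRF2.

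The identity of the line was visible in all 6 samples. RUNX1T1, which normal blood cells hardly express, was at 8.38, 8.45 and 8.73 FPKM in the controls and at 8.17, 8.22 and 9.66 FPKM with OGP46. KIT was at 116 to 145 FPKM in the controls and at 110 to 132 FPKM with OGP46, and CD34 lay between 91.4 and 108 FPKM. MPO, the myeloperoxidase of primary granules, was at 4870 to 5190 FPKM in the controls and at 4180 to 4550 FPKM with OGP46. Its groups did not overlap (log2 fold change −0.18). None of the 4 genes passed the test in either direction, and RUNX1 (log2 fold change 0.06) did not either. The FPKM of a sample summed to between 279802 and 310262, and between 9631 and 9746 genes reached 1 FPKM. No read counts come with FPKM, so depth and counting error are unknown. One library stood apart. In control sample 2, the 15 genes that were at 20 FPKM or more in NB4 controls but under 0.2 FPKM in the median Kasumi-1 sample summed to 1.42% of their NB4 level, against 0.124% to 0.238% in the other Kasumi-1 samples. The source of this signal was not tested. Among the genes that passed the test below, AIF1, APOBEC3B, ASS1, CST7, MS4A3, NFE2 and RNASE3 are the ones for which that share of the NB4 level comes to 10% or more of the value in control sample 2, so each is also given without the samples numbered 2 (pair 2). The same share is also reached by genes that did not pass, among them CD3D, CD48, HMOX1 and SRGN.

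Limma was run on log2(FPKM + 0.1) to compare OGP46 with control, and the 11835 genes tested had means of 0.1 FPKM or more in the 6 samples. A gene passed when its adjusted p (Benjamini-Hochberg) lay below 0.05 and its log2 fold change reached 0.58 either way. All fold changes are on this log2(FPKM + 0.1) scale, which understates the change of genes at low FPKM. Without the sample number as a block, KCTD12 and SQSTM1 passed upwards, which is 0.0169% of the genes tested, and HIST2H2AC and TRH passed downwards, again 0.0169%. Samples with the same number deviated together in the control and OGP46 groups, and when each OGP46 sample was set against the control of its own number (the number as a block), 32 genes rose and 41 fell. These are 0.270% and 0.346% of the genes tested. The 4 genes named above were among the 73. With the block and median centring, 26 genes rose (0.220%) and 67 fell (0.566%), and 62 of the 73 genes were called again, so the share of rising genes moved from 43.8% to 28.0% with the scale. All 73 genes moved in the same direction in the 3 pairs, none changed sign under median centring, TPM scaling or quantile normalization, and 65 had groups that did not overlap. The 73 genes were selected on these same pairs with a fold minimum, so this agreement is largely set by the selection and is no separate support. Over all genes tested, 17.4% lay entirely higher and 5.23% entirely lower with OGP46. When 1 pair was left out, 35 of the 73 genes passed again every time. The others lost their call at least once, always in the same direction, and the counts moved to 69 up and 43 down without pair 2 and to 67 up and 88 down without pair 3. Without the block, 0 genes passed when OGP46 sample 1 or control sample 1 was left out, 8 up and 1 down without control sample 2, and 4 up and 7 down without OGP46 sample 3. In the paragraphs below, "rose" and "fell" refer to the paired test, "paired" marks an adjusted p with the block and "unpaired" one without it. Counts of list members at an unadjusted p come without the share of all genes at that level, so they do not set a list apart.

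**Figure D1:**
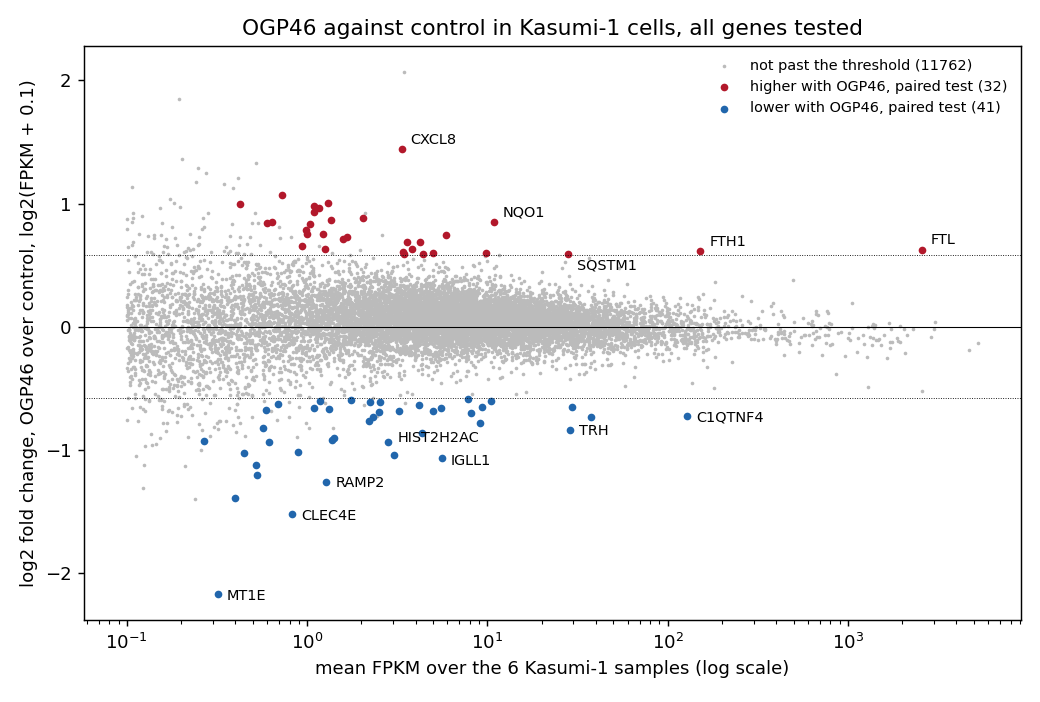
Mean FPKM over the 6 Kasumi-1 samples (log axis) against the log2 fold change of OGP46 over control for every gene tested. Red and blue points are the 32 genes that rose and the 41 that fell in the paired test, dotted lines mark 0.58 in either direction, and most coloured points lie below 10 FPKM, with FTL and FTH1 at the far right.

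Genes of the NRF2 program were among those that rose. Of 22 NRF2 regulators and target genes, 21 were tested, and 20 of them had a log2 fold change above 0, where 62.0% of all genes tested lay. NQO1, OSGIN1 and SQSTM1 rose past the fold minimum and 0 fell. A further 4, EPHX1, MAFG, BACH1 and TXNRD1, reached an adjusted p below 0.05 at log2 fold changes of 0.50, 0.37, 0.27 and 0.26, which makes 7 of 21 or 33.3%, against 2.44% of all genes for a rise at any fold. The median log2 fold change of the list was 0.26, against 0.05 over all genes tested. After median centring with the block, 2 members passed and the median was 0.20.

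NQO1, a quinone reductase and a standard readout of NRF2, was at 5.79, 8.35 and 8.96 FPKM in control samples 1 to 3 and at 12.0, 12.3 and 17.5 FPKM with OGP46. All OGP46 samples lay above all controls, and sample 3 was the highest of both groups. This was a log2 fold change of 0.85 ± 0.09 (standard error, paired adjusted p = 0.0042 from limma, unpaired 0.0891). SQSTM1 was at 20.8, 24.4 and 21.6 FPKM in the controls and at 34.7, 32.7 and 33.5 FPKM with OGP46, so that the spread within each group was small beside the gap. It changed by 0.59 ± 0.07 on the log2 scale (standard error, paired adjusted p = 0.0044, unpaired 0.0242), and it dropped under the fold minimum without pair 1 (0.52) or pair 3 (0.58 after rounding). OSGIN1, an inhibitor of growth under oxidative stress, was low, at 0.432, 0.833 and 0.962 FPKM in the controls and 0.960, 1.38 and 2.41 FPKM with OGP46. Its groups overlapped by a hair, as OGP46 sample 1 lay just under control sample 3, but each OGP46 sample lay above the control of its number (log2 fold change 0.96, paired adjusted p = 0.0109, unpaired 0.208). HMOX1, which breaks down haem, had the highest log2 fold change of the list at 1.33 and did not pass (paired adjusted p = 0.0690), but it was at 1.99 (adjusted p = 0.0101) without pair 2. The lowest was that of the aldose reductase AKR1B1, at −0.18 (adjusted p = 0.121).

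Among the 73 genes, ferritin carried the largest differences in mean FPKM. FTL, the ferritin light chain, ranked 7 among all genes by mean FPKM and rose from 1750, 2170 and 2130 FPKM in the controls to 2830, 2970 and 3540 FPKM with OGP46. Its share of the FPKM sum was 0.611% to 0.761% in the controls and 0.956% to 1.27% with OGP46. FTH1, the heavy chain that oxidizes iron for storage, went from 104, 124 and 131 FPKM to 167, 165 and 218 FPKM. The groups of both genes were apart, and in both the increase was smallest in pair 2. The log2 fold changes were 0.63 for FTL (paired adjusted p = 0.0091, unpaired 0.0817) and 0.61 for FTH1 (paired adjusted p = 0.0044, unpaired 0.0747). Both chains have many processed pseudogenes, so their values depend on how the authors shared out reads. Of 14 genes of ferritin and iron handling, 11 were tested, 2 rose, 0 fell and the median log2 fold change was 0.15. FBXL5, the iron sensor that marks iron regulatory proteins for degradation, had an adjusted p of 0.0315 at a log2 fold change of 0.37. With median centring, both chains lay under the fold minimum and 0 members passed. Without pair 3, FTL was at 0.57 (adjusted p = 0.145) and FTH1 at 0.55, and FTH1 was at 0.58 after rounding, just under the minimum, without pair 1.

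PIR, the iron-binding nuclear protein pirin, was at 3.70, 4.78 and 4.58 FPKM in the controls and at 6.41, 7.09 and 8.61 FPKM with OGP46 (log2 fold change 0.74, paired adjusted p = 0.0043, unpaired 0.0611). The groups did not overlap.

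Among 19 autophagy and lysosome regulators, 17 were tested and 15 had a log2 fold change above 0, against 62.0% of all genes. In this list 0 passed the fold minimum at the adjusted p, and 10 were higher at an unadjusted p below 0.05. The highest log2 fold change was that of OPTN, at 0.66 (adjusted p = 0.201). OPTN was low, at 0.176 FPKM in its highest sample. At any fold, 5 members (29.4%) had an adjusted p below 0.05, all higher, against 2.44% of all genes. These were the ATG8 proteins GABARAPL1 (0.52), MAP1LC3B (0.32) and GABARAPL2 (0.27), which coat autophagosomes, the cargo receptor NBR1 (0.47) and TFE3 (0.46), a transcription factor of lysosomal genes. NBR1 was at 4.89 to 5.24 FPKM in the controls and at 6.56 to 7.44 FPKM with OGP46 (paired adjusted p = 0.0109, unpaired 0.0611). The list's median log2 fold change was 0.21. CTSL, a lysosomal protease, rose from 0.251, 0.423 and 0.121 FPKM to 0.634, 0.634 and 0.499 FPKM (log2 fold change 1.00, and 0.96 with adjusted p = 0.115 without pair 1).

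**Figure D2:**
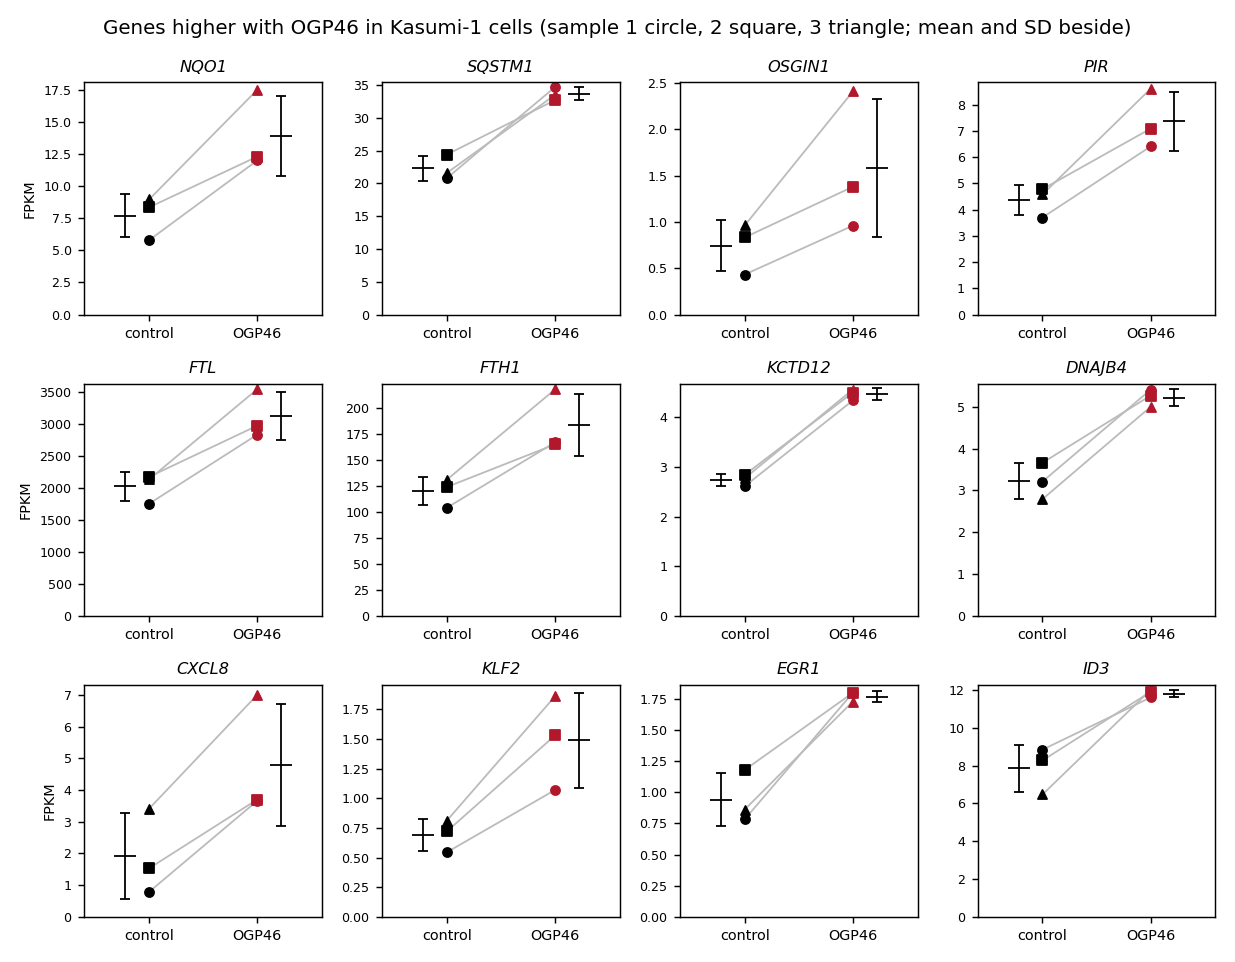
FPKM per sample for 12 genes that rose in the paired test, controls in black and OGP46 in red, with grey lines joining same-numbered samples and bars for the group mean and SD (n = 3). In every panel all 3 lines go up, and only in OSGIN1 do the groups touch.

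Other stress programs had few or no members past the fold minimum. Of 18 heat shock chaperones, DNAJB4 alone rose. This DNAJ (HSP40) chaperone was at 3.21, 3.66 and 2.79 FPKM in the controls and 5.41, 5.27 and 5.0 FPKM with OGP46 (log2 fold change 0.69, paired adjusted p = 0.0061, unpaired 0.0515), while the list's median was 0.06. Of 18 genes tested of the ATF4 stress response, 0 passed in either direction and the median was 0.01. DDIT3 (CHOP) had a log2 fold change of 0.39 (adjusted p = 0.0370) and the amino acid transporter SLC7A5 one of −0.27 (adjusted p = 0.0487). In the unfolded protein response of the endoplasmic reticulum, 0 of 19 passed the fold minimum, and CRELD2 (−0.40), SDF2L1 (−0.33) and the chaperone HSPA5 or BiP (−0.29) were lower at an adjusted p below 0.05, with a list median of −0.10. These are 15.8% of the list, against 1.12% of all genes lower at any fold. Of 16 p53 target genes tested, 0 passed in either direction, RRM2B was at 0.41 (adjusted p = 0.0261) and the median was 0.07.

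A handful of early response and inhibitory transcription factors rose. KLF2, a zinc finger factor of quiescent leukocytes, went from 0.545, 0.721 and 0.812 FPKM to 1.07, 1.53 and 1.86 FPKM, with no overlap of the groups (log2 fold change 0.98, paired adjusted p = 0.0067, unpaired 0.0898). EGR1, an immediate early factor that also acts in macrophage differentiation, went from 0.784, 1.18 and 0.862 FPKM to 1.80, 1.80 and 1.73 FPKM (log2 fold change 0.87, paired adjusted p = 0.0122, unpaired 0.0650). The OGP46 samples of EGR1 were far more alike than its controls. Of 20 immediate early and KLF factors tested, these 2 rose, 0 fell, KLF6 was at 0.41 (adjusted p = 0.0134) and the median was 0.12. ID3, a dominant negative partner of basic helix-loop-helix factors, rose from 8.84, 8.27 and 6.47 FPKM to 11.6, 11.9 and 12.0 FPKM (log2 fold change 0.60, paired adjusted p = 0.0124, and 0.45 without pair 3). Its relative ID1 moved from 20.3, 23.9 and 22.4 FPKM to 30.2, 32.8 and 32.8 FPKM, a log2 fold change of 0.52 under the fold minimum, although its adjusted p was 0.0042 with the block and 0.0397 without. The list of 28 myeloid and progenitor transcription factors tested held no other gene with an adjusted p below 0.05, and its median was 0.04. Of 17 MAPK feedback genes tested 0 passed in either direction, ETV5 was at 0.53 (adjusted p = 0.0073) and the median was 0.11.

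Chemokines and innate immune genes were examined next. CXCL8 and CXCL1, which attract neutrophils, were the 2 of 15 chemokines and cytokines tested that rose, and 0 fell. CXCL8 had the highest log2 fold change of all genes that rose (1.44). CXCL1 was at 0.751, 0.861 and 0.855 FPKM in the controls and at 1.38, 1.68 and 2.29 FPKM with OGP46, with the groups apart (log2 fold change 1.00, paired adjusted p = 0.0076, unpaired 0.0647). TNFSF13B, the B cell survival factor BAFF, was lower at −0.30 (adjusted p = 0.0344), and the list's median was 0.18. Among 19 Toll-like receptors and NF-kB feedback genes tested, TLR6 rose (0.83, and 0.79 with adjusted p = 0.0540 without pair 1), 0 fell, TLR4 was at 0.54 (adjusted p = 0.0376) and the median was 0.20. NCF1, the p47 subunit of the phagocyte oxidase, rose at a log2 fold change of 0.79 and was the 1 of 11 late granule and neutrophil genes tested to do so, with 0 falling and a median of 0.13. NCF1 has near-identical pseudogenes and FCGR1B (0.75), a copy of the high-affinity Fc receptor, a near-identical relative, so both values are uncertain. Without pair 1, NCF1 was at 0.59 (adjusted p = 0.116) and FCGR1B at 0.63 (adjusted p = 0.0753).

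No member of the list of monocyte and macrophage genes passed the fold minimum at the adjusted p. Of 25 in the table, 13 were tested, 12 of these had a log2 fold change above 0 (62.0% of all genes did), 0 passed the fold minimum and the median was 0.18. Outside this list, the myeloid genes AIF1 (−0.60), CLEC4E (−1.52) and CLEC4D (−0.90) fell and FCGR1B (0.75) rose. CD68, a lysosomal glycoprotein of macrophages, was at 9.16, 11.4 and 6.97 FPKM in the controls and 14.2, 12.2 and 11.4 FPKM with OGP46 (log2 fold change 0.47, paired adjusted p = 0.0441, unpaired 0.193). The list summed to 82.0 to 104 FPKM in the controls and to 97.5 to 104 FPKM with OGP46. On the cell surface, PTPRC (CD45) was at 6.51 to 7.41 FPKM in the controls and 8.98 to 10.5 FPKM with OGP46 (log2 fold change 0.50, paired adjusted p = 0.0070, unpaired 0.0611). The myeloid lectin CD33 was at 8.43 to 8.77 FPKM and 10.9 to 11.2 FPKM (log2 fold change 0.36, paired adjusted p = 0.0177, unpaired 0.0611). Both groups were apart in both genes, but neither gene reached the fold minimum, and 0 of 22 growth factor receptors and progenitor surface genes tested did so at the adjusted p (median 0.02). The widest value of that list was CD99, at 18.5 FPKM in OGP46 sample 1 and at most 0.846 FPKM in the other 5 samples. CD48 was at −0.68 (adjusted p = 0.0723, and −0.69 with 0.109 without pair 2). ANPEP (CD13) was at 13.5 to 18.5 FPKM in the controls and 15.3 to 18.7 FPKM with OGP46 (log2 fold change 0.09, paired adjusted p = 0.396).

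The remaining rising genes were spread over many functions. KCTD12, an auxiliary subunit of GABA-B receptors, had the tightest groups of the genes that rose, at 2.61, 2.84 and 2.77 FPKM in the controls and 4.34, 4.50 and 4.56 FPKM with OGP46 (log2 fold change 0.69, paired adjusted p = 0.0044, unpaired 0.0242). SEMA6B, a transmembrane semaphorin, went from 0.525, 0.841 and 0.801 FPKM to 1.30, 1.41 and 1.65 FPKM (log2 fold change 0.93, paired adjusted p = 0.0107, unpaired 0.0747). The cytidine deaminase APOBEC3B went from 1.22, 1.19 and 1.78 FPKM to 3.06, 1.85 and 3.15 FPKM (log2 fold change 0.88, and 1.02 without pair 2, adjusted p = 0.0111 and 0.0121). N6AMT1, a methyltransferase of the release factor that ends translation, was at 2.92 to 3.04 FPKM in the controls and 4.13 to 5.09 FPKM with OGP46 (log2 fold change 0.63, and 0.57 without pair 2). DDX60L, a helicase-like relative of the antiviral DDX60, was at 0.71 and the activin-binding protein FSTL3 at 0.75. CASTOR1, the arginine sensor upstream of mTORC1, was at 0.84, the bitter taste receptor TAS2R14 at 0.85, the protease inhibitor SERPINB8 at 0.61, the potassium channel subunit KCNE3 at 0.59 and the polarity family member PRICKLE4 at 0.66. TMEM154 (0.59), SMIM29 (0.60) and the loci LOC105373780 (0.73) and LOC112268105 (0.63) rose as well. PHOSPHO2-KLHL23 (1.07) is a read-through of a pair of neighbouring genes, and its value rests on how fragments were divided among them. Several of these calls were lost when a pair was left out. Without pair 1, CASTOR1 (0.77, adjusted p = 0.169), SERPINB8 (0.46, adjusted p = 0.0623), PRICKLE4 (0.71, adjusted p = 0.0676), LOC105373780 (0.66, adjusted p = 0.0606), LOC112268105 (0.59, adjusted p = 0.0962), KCNE3 (0.57) and SMIM29 (0.54) no longer passed. Without pair 2 the same held for CASTOR1 (0.64, adjusted p = 0.115), PRICKLE4 (0.68, adjusted p = 0.0525) and TAS2R14 (0.96, adjusted p = 0.0598). Without pair 3 it held for TAS2R14 (0.57, adjusted p = 0.0855), KCNE3 (0.48), TMEM154 (0.51) and SMIM29 (0.58 after rounding).

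Short stretches of the promoters of rising genes were read to show the letters that stress and inflammatory factors are known to bind. The motif TGANTCA is the core bound by AP-1 and by dimers of small MAF proteins with NRF2 or NFE2, and TGACNNNGC is the core of the antioxidant response element. CACGTG is an E-box, TGTGGT the core bound by RUNX1, CCAAT the CCAAT box and TATAAA the TATA box. All were chosen after the values had been seen. They were searched on both strands from 250 bases before to 50 bases after each start site, in RefSeq sequences of GRCh38.p14, which were found for 9358 of the genes tested, 26 of the 32 that rose and 22 of the 41 that fell. TGANTCA occurred in 4 of the 26, in 0 of the 22 and in 4.23% of all promoters. TGACNNNGC occurred in 2 of the 26, in 3 of the 22 and in 15.2% of all. TATAAA occurred in 4 of the 26, in 1 of the 22 and in 5.48% of all, and CCAAT in 10 of the 26, in 4 of the 22 and in 36.9% of all. CACGTG occurred in 0 of the 26, in 2 of the 22 and in 10.5% of all, and TGTGGT in 1 of the 26, in 3 of the 22 and in 9.18% of all. The 4 promoters with TGANTCA follow, 30 bases each in the direction of transcription, with the match in capitals.
CXCL8: aggaagtgtgaTGACTCAggtttgccctga
OSGIN1: cgggcccctgcTGACTCAcgcttatgaaag
PIR: ccgcgaagcgcTGAGTCAcggtgaggctac
SERPINB8: tcgaacggttcTGAGTCAtctgccggaagc
They lie at chr4:73740421-73740450 on the plus strand, chr16:83953132-83953161 on the plus strand, chrX:15493287-15493316 on the minus strand and chr18:63970042-63970071 on the plus strand. The match begins 137 bases before the start site in CXCL8, 97 before in OSGIN1 and 28 before in SERPINB8, and at base 29 of the transcript in PIR. SERPINB8 holds a further match 185 bases before its start. A match is a run of letters and not evidence of binding.

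Of the 14 tested genes associated with t(8;21) leukemia, 7 had a log2 fold change below 0, against 4493 of all 11835. TRH, which encodes thyrotropin-releasing hormone and is high in t(8;21) leukemia, was at 34.8, 37.8 and 38 FPKM in the controls and at 21.0, 18.7 and 22.4 FPKM with OGP46. The groups were far apart relative to their spread (log2 fold change −0.84, ± 0.07 standard error, paired adjusted p = 0.0018, unpaired 0.0103). IGLL1, the surrogate immunoglobulin light chain, fell from 9.54, 7.01 and 6.02 FPKM to 4.95, 3.89 and 2.17 FPKM (log2 fold change −1.07, paired adjusted p = 0.0038, unpaired 0.117). These were the 2 of 14 genes tested of those associated with t(8;21) leukemia that fell, 0 rose and the median was −0.02. ROBO1 was at 0.31 (adjusted p = 0.0600).

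MS4A3, a membrane protein of granulocyte and monocyte progenitors, fell from 4.95, 3.76 and 3.64 FPKM to 2.66, 1.73 and 1.55 FPKM, with no overlap (log2 fold change −1.04, and −1.03 without pair 2, adjusted p = 0.0021 and 0.0057). Among the 11 primary granule genes tested, 1 fell past the fold minimum, 0 rose and the median was −0.23. Of the 11, 8 had a log2 fold change below 0, against 4493 of the 11835 genes tested. The proteases PRTN3 (−0.52) and ELANE (−0.49) and the antimicrobial protein AZU1 (−0.39) were lower at an adjusted p below 0.05. With CST7 they make 4 of 11 lower at any fold, against 1.12% of all genes. PRTN3 was at 2940, 3680 and 2520 FPKM in the controls and 2150, 2410 and 1790 FPKM with OGP46, and ELANE at 1440, 1720 and 1350 FPKM and 1040, 1130 and 1040 FPKM. Both groups were apart in both genes, and without the block neither gene had an adjusted p below 0.05 (0.170 and 0.0898). CST7 (cystatin F), an inhibitor of granule proteases, was the member past the fold minimum at −0.69, with 3.90, 6.51 and 1.82 FPKM in the controls and 2.07, 3.89 and 1.31 FPKM with OGP46. Its groups overlapped, and without pair 2 it was at −0.66 (adjusted p = 0.0333). In the other direction, the granule proteoglycan SRGN was at 0.48 (adjusted p = 0.0363), from 18.1, 26.6 and 20.9 FPKM to 30.6, 29.1 and 30.6 FPKM, and without pair 2 it was at 0.65 (adjusted p = 0.0042). With median centring, 2 members fell.

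The ribonucleases of eosinophil granules, RNASE3 and RNASE2, were lower. RNASE3, the eosinophil cationic protein, fell from 1.18, 2.23 and 1.97 FPKM to 0.544, 0.793 and 1.48 FPKM with overlapping groups (log2 fold change −0.92, paired adjusted p = 0.0261, and −0.69 with adjusted p = 0.0564 without pair 2, which ends the call). RNASE2 was at −0.38 (adjusted p = 0.0248). Of 10 genes of mast cells, basophils and eosinophils tested, 1 fell, 0 rose and the median was −0.21. Their sum lay between 48.4 and 66.3 FPKM in the controls and 46.8 and 49.7 FPKM with OGP46.

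CLEC4E (Mincle) and CLEC4D, C-type lectin receptors of myeloid cells that recognize mycobacterial glycolipids and act as a pair, fell together. CLEC4E was at 0.944, 1.35 and 1.46 FPKM in the controls and 0.199, 0.346 and 0.647 FPKM with OGP46 (log2 fold change −1.52, paired adjusted p = 0.0044, unpaired 0.0817). CLEC4D was at 2.06, 1.67 and 1.85 FPKM and 0.854, 0.783 and 1.25 FPKM (log2 fold change −0.90, paired adjusted p = 0.0125, unpaired 0.0747). The groups of each were apart. PIM1, a survival kinase downstream of cytokine receptors, fell from 4.95, 5.85 and 5.95 FPKM to 3.10, 2.49 and 3.58 FPKM (log2 fold change −0.86, paired adjusted p = 0.0067, unpaired 0.0515). IL17RE, a receptor chain for interleukin-17C, was at −0.69 and at −0.54 without pair 2, and AIF1, an actin-bundling protein of macrophages, at −0.60 and at −0.45 without pair 2, under the fold minimum.

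**Figure D3:**
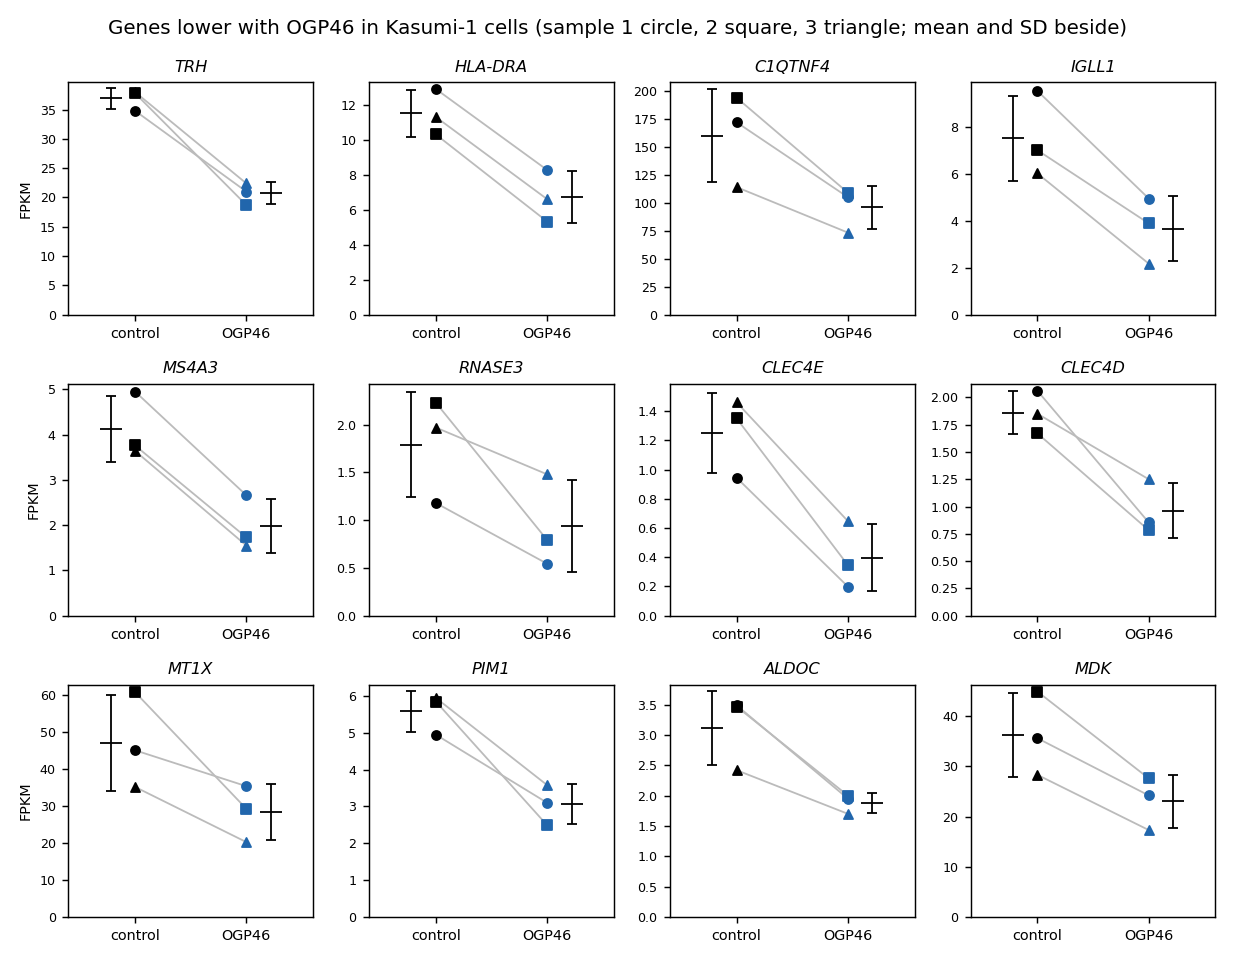
FPKM per sample for 12 genes that fell in the paired test, controls in black and OGP46 in blue, with grey lines joining same-numbered samples and bars for the group mean and SD (n = 3). All lines go down, and the groups overlap only in RNASE3 and MT1X.

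Antigen presentation genes were split. HLA-DRA, the alpha chain of HLA-DR, fell from 12.9, 10.3 and 11.3 FPKM to 8.27, 5.32 and 6.60 FPKM (log2 fold change −0.78, paired adjusted p = 0.0029, unpaired 0.0747). It was the 1 of 10 genes tested of MHC class II that fell, and 0 rose. Of the 10, 9 had a log2 fold change below 0, against 4493 of the 11835 genes tested, and the median was −0.26. The invariant chain CD74, which guides class II molecules to the peptide-loading compartment, was at −0.31 (adjusted p = 0.0315), and the regulator RFXAP at −0.22 (adjusted p = 0.143). With median centring, 2 members fell. In MHC class I and peptide loading, 0 of 15 passed the fold minimum at the adjusted p and the median was −0.07. TAP1 was at −0.73 (adjusted p = 0.0525), and with median centring 1 member fell. HLA-B (−0.34) was lower and HLA-E (0.30) and the trimming peptidase ERAP1 (0.29) higher, each at an adjusted p below 0.05. HLA genes are polymorphic and alike, so reads may have been shared between them.

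The interferon-stimulated genes also moved both ways, with 0 of 20 past the fold minimum in either direction and a median of 0.24. The membrane proteins IFITM1 (−0.55), IFITM3 (−0.46) and IFITM2 (−0.30), which block the entry of viruses, were lower and IFIT3 (0.51) and IRF9 (0.43) higher at an adjusted p below 0.05. IFITM1 was at 15.6, 17.9 and 17.9 FPKM in the controls and 12.2, 11.5 and 11.2 FPKM with OGP46 (paired adjusted p = 0.0084, unpaired 0.0397).

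Metallothioneins, small proteins that bind zinc and copper, were the list with the lowest median, at −0.49 over 7 genes tested of 12, of which 2 fell and 0 rose past the fold minimum. MT1X fell from 45.0, 60.7 and 35.1 FPKM to 35.3, 29.2 and 20.2 FPKM (log2 fold change −0.73, paired adjusted p = 0.0111, unpaired 0.164), with OGP46 sample 1 just above control sample 3, and was at −0.57 without pair 2. MT2A was at 208, 250 and 172 FPKM in the controls and 153, 188 and 112 FPKM with OGP46 (log2 fold change −0.49, adjusted p = 0.0067). MT1E was at 0.519, 0.666 and 0.517 FPKM in the controls, at 0.221 FPKM in OGP46 sample 2 and listed at 0 in the other 2, so its fitted log2 fold change of −2.17 rests on the added 0.1 and is not given as a fold. The zinc importer SLC39A10 went the other way at 0.33 (adjusted p = 0.0488). The MT1 genes are near-identical copies of each other.

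Histone genes gave no single direction. Of 25 clustered replication-dependent histone genes tested, 2 fell, HIST2H2AC (−0.94) and HIST1H2BC (−0.82), 0 rose and the median was 0.33. HIST2H2AC was at 4.01, 4.12 and 3.10 FPKM in the controls and 1.89, 1.72 and 2.09 FPKM with OGP46 (paired adjusted p = 0.0076, unpaired 0.0397). HIST1H2BK was higher at 0.49 (adjusted p = 0.0125). HIST1H2AJ, which is not in the list, fell as well (−1.39). Without pair 2, HIST1H2BC (−0.68, adjusted p = 0.0601) and HIST1H2AJ (−1.37, adjusted p = 0.0713) no longer passed, and HIST1H2BC did not without pair 1 either (−0.86, adjusted p = 0.104). Most transcripts of these genes carry no poly(A) tail and their copies are alike, so the values are uncertain.

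The other falling genes had varied functions. C1QTNF4, a secreted relative of complement C1q, was the most abundant of the genes that fell. It was at 172, 194 and 114 FPKM in the controls and 105, 109 and 73.3 FPKM with OGP46 (log2 fold change −0.72, ± 0.06 standard error, paired adjusted p = 0.0018, unpaired 0.144). The growth factor MDK (midkine) went from 35.6, 44.9 and 28.3 FPKM to 24.2, 27.6 and 17.3 FPKM (log2 fold change −0.65, paired adjusted p = 0.0021, unpaired 0.151). In both genes the 3 pairs kept nearly the same ratio while the samples of a group spread widely. RAMP2, a partner of the adrenomedullin receptor, went from 1.66, 1.68 and 2.02 FPKM to 0.596, 1.33 and 0.388 FPKM (log2 fold change −1.26, paired adjusted p = 0.0370, unpaired 0.127). ALDOC, an isoform of the glycolytic enzyme aldolase, was the 1 of 28 genes tested of glycolysis and hypoxia that fell (−0.69), 0 rose, P4HA1 was at 0.32 (adjusted p = 0.0297) and the median was −0.01.

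Further genes that fell were the constitutively active Ras relative ERAS (−0.70), the Nogo receptor RTN4R (−0.66), the T cell receptor zeta chain CD247 (−0.67), the haemoglobin chain HBQ1 (−0.73), the calcium-binding S100A1 (−1.20), the ephrin receptor EPHA1 (−0.68) and the cholesterol carrier STAR (−0.61). Regulators of chromatin, transcription and translation among them were RCOR2 (−0.93), SNAI3 (−0.66), NFE2 (−0.93) and EIF3C (−0.77), the last with a near-identical copy. NFE2 no longer passed without pair 2 (−0.82, adjusted p = 0.104) or pair 1 (−1.03, adjusted p = 0.107). The urea cycle enzyme ASS1 (−1.12) lost its call without pair 2 (−0.73, adjusted p = 0.146) and without pair 1 (−1.24, adjusted p = 0.0517). Control sample 2 held 1.88 FPKM of ASS1 and the other controls 0.295 and 0.249 FPKM. The list is completed by KCNK12 (−1.03), a potassium channel, ASPHD1 (−1.02), SMIM24 (−0.65), DDN (−0.64), the adhesion protein TNS1 (−0.63), the membrane rupture protein NINJ1 (−0.61), RAB42 (−0.60), the ARF6 regulator ACAP1 (−0.59) and PRRT4 (−0.58). Without pair 1, the calls of KCNK12 (−0.85, adjusted p = 0.131), TNS1 (−0.55, adjusted p = 0.204), EPHA1 (−0.58, adjusted p = 0.197), NINJ1 (−0.62, adjusted p = 0.0780), RAB42 (−0.57, adjusted p = 0.1004), RCOR2 (−0.87, adjusted p = 0.0606), SNAI3 (−0.69, adjusted p = 0.0549) and PRRT4 (−0.52) were lost. Without pair 2, this was so for KCNK12 (−0.89, adjusted p = 0.0976), TNS1 (−0.64, adjusted p = 0.0741), EPHA1 (−0.67, adjusted p = 0.0867), NINJ1 (−0.41, adjusted p = 0.0825), RAB42 (−0.57, adjusted p = 0.0571), SNAI3 (−0.59, adjusted p = 0.0512), ACAP1 (−0.49, adjusted p = 0.0690), DDN (−0.57), STAR (−0.49) and PRRT4 (−0.55). Without pair 3, CD247 and ACAP1 (both −0.56) lay under the fold minimum.

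In several large programs no member tested passed the fold minimum at the adjusted p. Of 28 cell cycle and mitosis genes, 0 passed in either direction even at any fold, their log2 fold changes lay between −0.14 and 0.25, and the median was 0.02. At an unadjusted p below 0.05, 5 were higher and 1 lower, with no share of all genes at that level to set beside them. MKI67, which marks cycling cells, was at 18.9 to 20.4 FPKM in the controls and 22.2 to 23.6 FPKM with OGP46 (log2 fold change 0.21, adjusted p = 0.0756). Of 27 DNA replication genes, 0 passed the fold minimum, the helicase subunit GINS3 was at −0.31 (adjusted p = 0.0459) and the median was −0.03. Among 15 G1 cyclins and CDK inhibitors tested 0 passed at any fold and 3 were higher and 3 lower unadjusted, with CCND2 at −0.21 (adjusted p = 0.0791), RB1 at 0.24 (adjusted p = 0.0505) and a median of 0.06. The BCL2 family (15 tested, median 0.00) likewise had 0, and 1 higher and 2 lower unadjusted, with the proapoptotic BIK at −0.28 (adjusted p = 0.0868) and MCL1 at 0.17 (adjusted p = 0.112).

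The housekeeping and metabolic lists likewise had no member past the fold minimum at the adjusted p. The 41 cytosolic ribosomal protein genes had 0 passing at any fold in limma, and 1 higher and 1 lower at an unadjusted p below 0.05. Their median was −0.06, with 34 below 0, against 4493 of the 11835 genes tested. The 31 proteasome subunits had 0 passing at any fold, with 2 higher unadjusted, and a median of 0.02. The 35 respiratory chain subunits had 0 past the fold minimum and a median of 0.00, with NDUFB10 at −0.34 (adjusted p = 0.0342). Of 30 genes of cholesterol and fatty acid synthesis tested, 0 passed the fold minimum and the median was −0.08. Of the 30, 23 had a log2 fold change below 0, against 4493 of the 11835 genes tested. Mevalonate kinase MVK was at −0.42 (adjusted p = 0.0477) and the sterol reductase TM7SF2 at 0.29 (adjusted p = 0.0446). Of 27 adhesion and cytoskeletal genes tested, 0 passed the fold minimum at the adjusted p. The integrin ITGAV was at 0.35 (adjusted p = 0.0228) and the median was 0.03. LGALS3 had the highest log2 fold change, at 1.16 (adjusted p = 0.0547). With median centring it passed, at 1.09 (adjusted p = 0.0441). VIM had the lowest, at −0.78 (adjusted p = 0.271), and was at 0.01 without pair 2.

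No tested member of the erythroid and megakaryocyte list or of the lymphoid list passed. Outside these lists, the haemoglobin chain HBQ1 (−0.73) and the T cell receptor chain CD247 (−0.67) fell. Of 24 erythroid and megakaryocyte genes, 12 were at 0 in all 6 samples, and of the 6 tested 0 passed at any fold and 2 were lower unadjusted (median −0.06), with sums of 106 to 127 FPKM in the controls and 104 to 105 FPKM with OGP46. Of 21 lymphoid markers in the table, 6 were at 0 in all samples, and of the 7 tested 0 passed at any fold and 3 were lower unadjusted (median −0.24), with sums of 13.7 to 20.7 FPKM and 12.9 to 14.5 FPKM. CD3D, the lowest of them at −0.78, had an adjusted p of 0.210 and was at −0.14 (adjusted p = 0.698) without pair 2. It was at 0.569 FPKM in control sample 2 and averaged 16.7 FPKM in NB4 controls. In bulk samples, fewer cells of a type and less RNA per cell cannot be told apart.

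**Figure D4:**
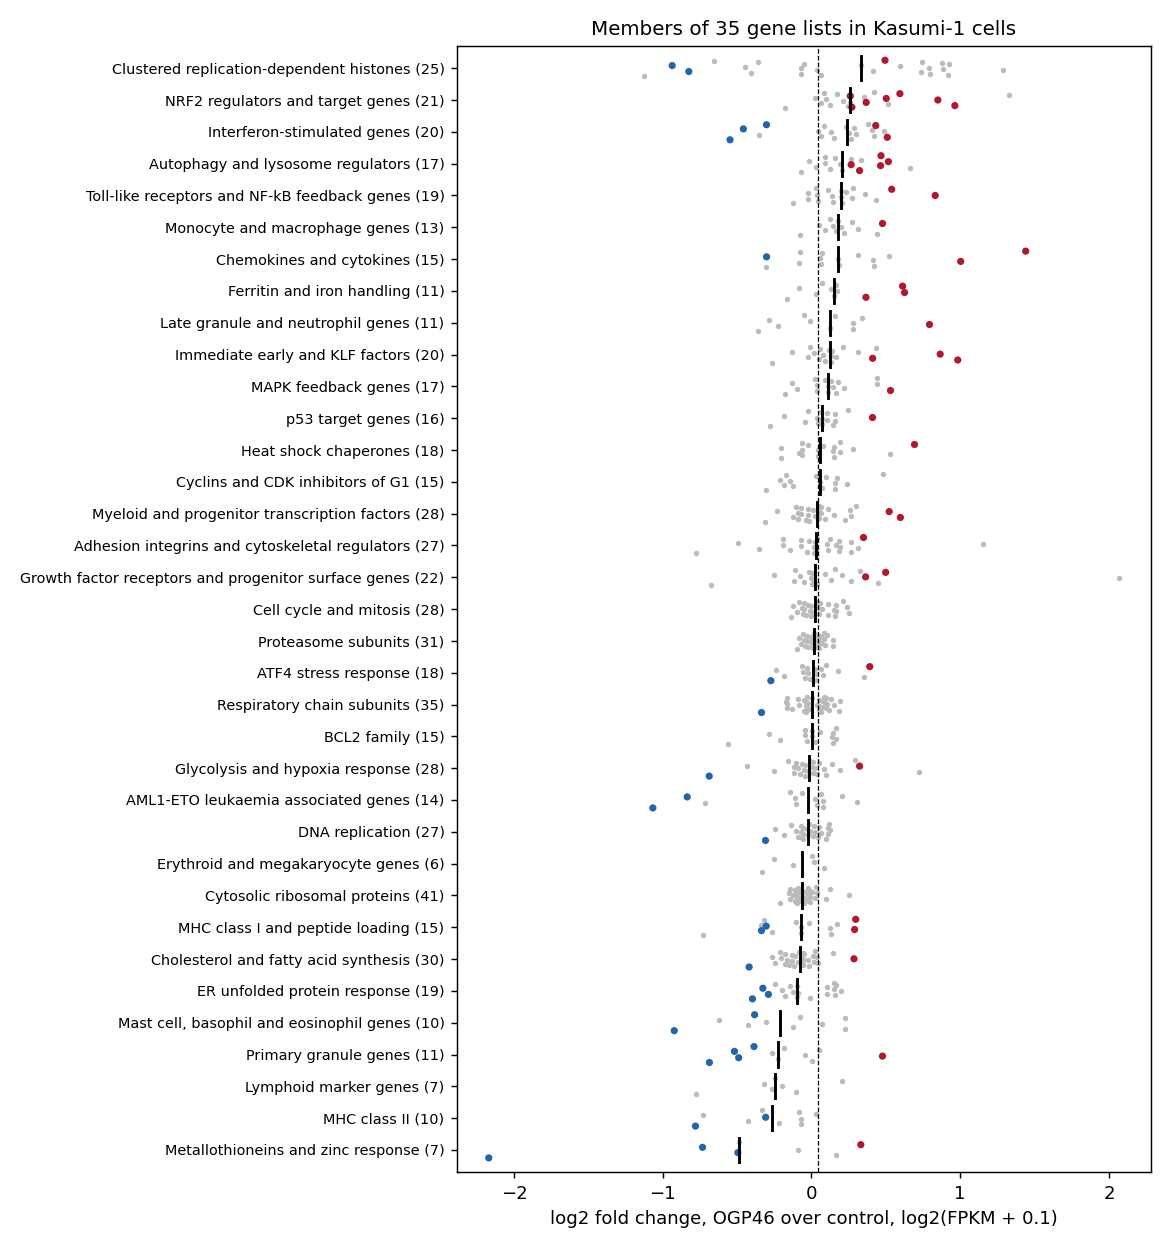
Log2 fold change of OGP46 over control for the tested members of the 35 gene lists, ordered by list median (black bar), with the number tested in brackets and the median of all genes as a dashed line. Red and blue points have an adjusted p below 0.05 at any fold in the paired test. They lie to the right in the NRF2 and autophagy lists and to the left in the MHC class II list. In the metallothionein list 3 lie to the left and 1 to the right, and in the primary granule list 4 to the left and 1 to the right.

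The genes that passed were not typical in base composition. The median GC content was 48.8% over the tested genes with an annotated transcript, 51.4% over the genes that rose and 57.4% over those that fell, and the median transcript lengths were 3301, 2177 and 1678 bases. After a loess correction of each sample for GC content and length, added after the data had been seen, 31 genes rose and 43 fell with the block, and 57 of the 73 passed again.

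Of the 73 genes, 64 were also tested in NB4 cells, the promyelocytic leukemia line of the same series. With the block, 23 of them passed there in the same direction, 16 up and 7 down. This is 31.5% of all 73 Kasumi-1 genes, untested ones included, and 3.15% of the 730 genes that passed in NB4. A further 2, PIM1 and PHOSPHO2-KLHL23, passed in the opposite direction. The overlap was not set against the share of all genes tested in NB4 that passed. The 23 include CXCL8, NQO1, OSGIN1, PIR, FTL, FTH1, KLF2, EGR1, DNAJB4, KCTD12, TLR6 and NCF1 upwards. Downwards they include IGLL1, MS4A3, C1QTNF4, RTN4R, DDN, STAR and PRRT4. Some were low in NB4 controls, with means of 0.29 FPKM for IGLL1, 0.57 for C1QTNF4 and 0.137 for KLF2. Whether the effect differed between the lines was tested by the interaction of line and treatment. Without the block 0 of 12309 genes differed at an adjusted p below 0.05 from limma and 1348 at an unadjusted one, and with the block 14 had a higher log2 fold change in Kasumi-1 (0.114%) and 223 a lower one (1.81%). With the block and median centring these counts became 47 and 97. Of the 73 Kasumi-1 genes, 11 were among those that differed with the block and without centring. PIM1 had the lowest adjusted p of the 11. It fell in Kasumi-1 and rose in NB4 (log2 fold change 0.71), a difference of −1.57 (standard error 0.16, paired adjusted p = 0.0039, unpaired 0.240). KLF2 rose in both, by 1.97 in NB4 and 0.98 in Kasumi-1 (adjusted p of the difference 0.0415), and FTH1 by 1.24 and 0.61 (adjusted p = 0.0268). PRTN3, under the fold minimum in Kasumi-1, was at −1.36 in NB4 (adjusted p of the difference 0.0241). TRH, HBQ1, ERAS, CXCL1 and SEMA6B were too low in NB4 to be tested there.

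**Figure D5:**
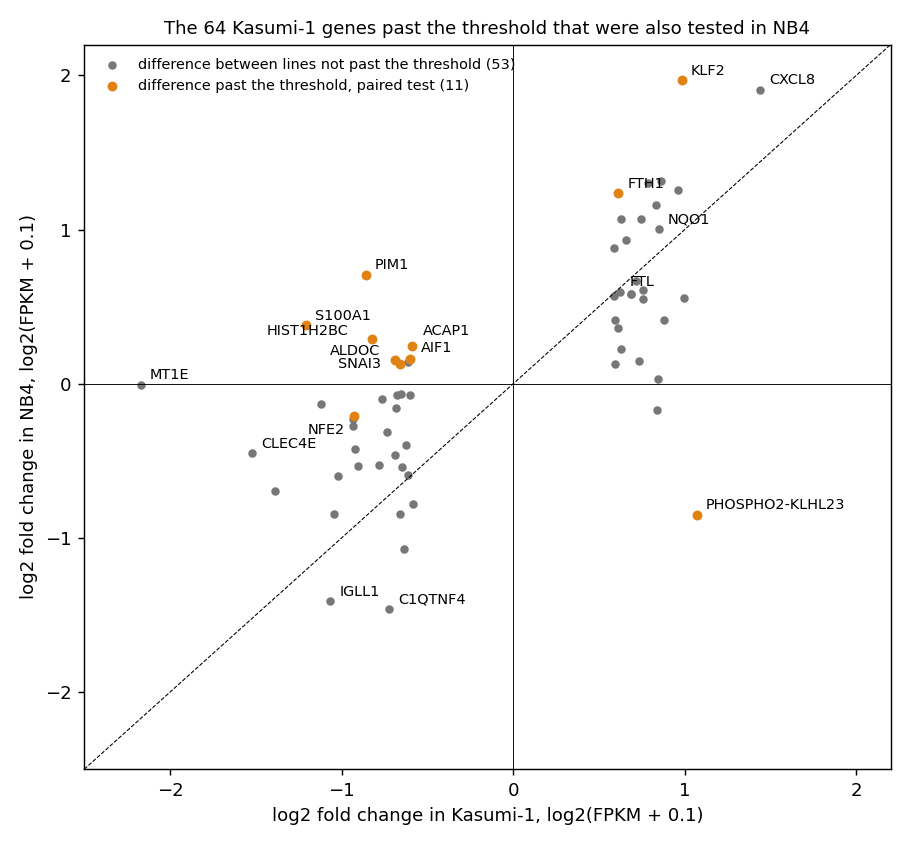
Log2 fold change in Kasumi-1 against that in NB4 for the 64 genes that passed in Kasumi-1 and were tested in NB4, with the dashed line where both are equal. Orange points are the 11 genes whose effect differed between the lines in the paired interaction test, among them PIM1 at upper left and PHOSPHO2-KLHL23 at lower right.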

How the data were processed

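The data are mRNA-seq of Kasumi-1 cells, 3 DMSO control and 3 OGP46 samples, with NB4 samples used for comparison only. The authors deposited FPKM per gene symbol. The submitters' processing notes name Trimmomatic, HISAT2, Cufflinks, HTSeq and hg38, without roles or versions, and the counting of strand is not given in the sources used here. Of all values, 632 lie above 0 and below 1e-04, so fragments were shared out by an estimate, and overlapping, antisense and near-identical genes are uncertain. In the 12 samples 27 symbols turned into dates were dropped, which left 20003 genes. Depth is unknown, and precision rests on 3 samples a group.

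Kasumi-1 genes whose mean reached 0.1 FPKM were tested as log2(FPKM + 0.1) with limma 3.58.1 in R 4.3.3 (empirical Bayes, mean-variance trend, Benjamini-Hochberg over all genes tested), and the interaction with NB4 likewise over 12 samples. Calls needed an adjusted p below 0.05 together with 0.58 or more on the log2 scale. The result without a block is the main one. The samples' numbers come from their labels, which do not say what the numbers stand for. Controls deviated from their mean together with the OGP46 sample of the same number (Pearson r 0.218, 0.157 and 0.395 across the 11835 genes tested, which are not independent). Samples of unlike number gave r from −0.278 to 0.101, the highest for control 1 with OGP46 sample 2. Values with the number as a block are therefore given beside the result without it. The limma fits were tested on simulated data. The interferon, NRF2 and other 33 lists were described by counts and medians, without a set test. The members, lists and tests were chosen with earlier results of these data known. Genes named are those called without the block, the 15 largest changes in each direction among genes called with it (mean of at least 1 FPKM, groups apart), up to 4 members of each list by p, all others called with the block, and identity genes. Further list members with an adjusted p below 0.05 and the extremes of lists were named after their values were seen. GC content and length came from GENCODE 29 and promoters from RefSeq. Alternatives were the block, scalings, pseudocounts, filters, moderation, array weights, a GC correction and leaving out samples or pairs. Columns with no sample of the series: 0. The result of 1 gene is not reported here.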

Additional observations from a re-analysis of the deposited data

Results flagged for a closer look

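The effect of OGP46 differed between Kasumi-1 and NB4 cells by the interaction test with the replicate number as a block for 11 of the genes that passed in Kasumi-1. The difference, Kasumi-1 minus NB4 on the log2(FPKM + 0.1) scale, was −1.57 for PIM1, −1.58 for S100A1, −1.12 for HIST1H2BC, −0.99 for KLF2, −0.84 for ALDOC, −0.84 for ACAP1, −0.79 for SNAI3, −0.76 for AIF1, −0.72 for NFE2, −0.62 for FTH1 and 1.92 for PHOSPHO2-KLHL23. Adjusted p from limma ranged from 0.0039 for PIM1 to 0.0435 for NFE2 with the block, and 0 of the 11 differed without it. KLF2 and FTH1 rose in both lines and more in NB4, and PHOSPHO2-KLHL23 was at −0.85 in NB4, where its value depends on the division of fragments between overlapping genes. AIF1 and NFE2 lie among the genes touched by the NB4-type signal in control sample 2, whose part in the difference was not tested.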

How the results depend on the processing

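Without the block 2 genes passed in each direction, and the following counts are given as genes higher and genes lower. They were 32 and 41 with the replicate block, 4 and 14 with median centring, 13 and 5 with TPM scaling, 3 and 8 with quantile normalization, 0 and 2 with a pseudocount of 1, 0 and 0 without the filter (86 and 87 at an unadjusted p below 0.05 and the same fold minimum), 13 and 11 at a minimum mean of 1 FPKM, 0 and 0 without the mean-variance trend (77 and 67 likewise unadjusted), 16 and 11 with array weights, and 7 and 4 after a loess correction for GC content and length, which was chosen after seeing the data. With 1 sample left out they ranged from 0 (without control 1, control 3 or OGP46 1) to 8 higher (without control 2) and from 0 (without control 1 or OGP46 1) to 7 lower (without OGP46 3), and a pseudocount of 0.01 gave 3 and 2.

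With the replicate block, the 32 and 41 genes became 26 and 67 with median centring, 52 and 47 with TPM scaling and 26 and 55 with quantile normalization. With 1 pair left out they ranged from 29 (without pair 1) to 69 higher (without pair 2, and 67 without pair 3) and from 39 (without pair 1) to 88 lower (without pair 3). Members of the gene lists that passed numbered 1 higher and 2 lower without the block and 13 and 10 with it. The interaction with NB4 gave 0 and 0 without the block, 14 and 223 with it, and 47 and 97 with the block and median centring. The cause of these shifts was not tested. Values of 121 single genes followed under these settings were scored as the same 2290 times, stronger 560 times, weaker 29 times and reversed 0 times. Signs still changed for some genes. CD34 was at 0.04 with the block and at −0.03 with the block and median centring. MMP9 was at −0.36 with the block and at 0.70 without pair 2.

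The limits are the 3 samples a group, the unknown depth, and the dependence of most calls on the pairing. Of the 73 genes called with the block, 4 were also called without it, 19 had a mean under 1 FPKM and 38 lost their call when 1 or another pair was left out.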
